A study of Mus musculus with 4 samples.

Results

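Monocytes were chosen cell by cell from the raw counts of unique molecular identifiers (UMIs), which count captured RNA molecules. A cell was a monocyte if it held at least 1 UMI of Csf1r and at least 2 UMIs of Ms4a4c, Plac8, Chil3 and Ly6c2 together. It could hold at most 1 UMI of C1qa, C1qb and C1qc together, at most 1 of Retnla, and 0 of the T cell genes Cd3e, Cd3d and Cd3g, of the B cell genes Cd79a and Ms4a1, and of Siglech. The gate found 871 of 42781 cells (2.04%), of which 344 of 21604 (1.59%) came from an earlier library and 527 of 21177 (2.49%) from a later one. Monocytes with at least 1 UMI of Ly6c2 were called Ly6c2-detected (403 cells), and the other 468 Ly6c2-undetected. These 15 genes chose the cells, so their values are given as a description and were not tested.

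The study measured gene expression in droplets of CD45+ cells, the immune cells, of the mouse mammary gland, and followed the gland through pregnancy, nursing and its return to rest. Cells of several samples were pooled in each library after staining with hash tags, antibodies that carry a DNA barcode, so that a cell was assigned to a sample by its tag. The earlier library held the samples named Nulliparous, Gestation, Lactation and a sample on tag HT2. The later library held Gestation, Lactation, Involution, Regression, Balb/c, a germ-free sample (GF, on tag HT12) and again a sample on HT2. A nulliparous animal has never been pregnant, in involution the milk-producing tissue collapses after weaning, Balb/c is another inbred strain, and germ-free animals are raised without microbes. In the tag sheets HT2 is named Germ-free for either library. The earlier library's titles have no germ-free sample but an involution one, and the later library's titles have only 1 germ-free sample, so the name of HT2 is disputed and it is called HT2 here. The later titles also list a nulliparous sample, whose tag HT4 had a total of 1 count in that library. The strain of the samples other than Balb/c, the stage of the Balb/c, GF and HT2 animals, and the number of animals per tag were not stated in any label. A p-value therefore concerns hash-defined samples (11 in all, fewer in some fits) or the differences within them, and their spread may be technical in part.

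Monocytes are short-lived phagocytes that are made in the bone marrow, circulate in blood and enter tissues. In the mouse, classical monocytes carry much Ly6C and the chemokine receptor CCR2 and can become macrophages or dendritic cells in a tissue. Patrolling monocytes carry little Ly6C, depend on the nuclear receptor NR4A1 (Nur77) and crawl along the vessel wall. Their growth and survival signal is read by the receptor that Csf1r encodes, and in the resting mammary gland macrophages are the more abundant myeloid cells.

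The 250 bases before the start of Ly6c2, the gene that splits these monocytes, are shown first with those of its neighbour Ly6c1, since reads of this near-identical pair can be confused. They come from RefSeq, build GRCm38.p6, and are written 5′ to 3′ on the gene's strand. Capitals mark a match to GAGGAAGT, a PU.1-type motif (PU.1 is the myeloid transcription factor that Spi1 encodes), searched on both strands. In Ly6c2, at chr15:75111972-75112221 on the minus strand, the match begins 108 bases before the start.
Ly6c2: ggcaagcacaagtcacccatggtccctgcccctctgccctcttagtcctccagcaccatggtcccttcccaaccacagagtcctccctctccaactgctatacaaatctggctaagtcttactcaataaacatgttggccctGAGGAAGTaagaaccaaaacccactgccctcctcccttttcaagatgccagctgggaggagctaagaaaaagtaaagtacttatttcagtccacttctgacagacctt
In Ly6c1, at chr15:75048838-75049087 on the minus strand, these letters have no match, and 171 of the 250 bases (68.4%) aligned as identical to Ly6c2.
Ly6c1: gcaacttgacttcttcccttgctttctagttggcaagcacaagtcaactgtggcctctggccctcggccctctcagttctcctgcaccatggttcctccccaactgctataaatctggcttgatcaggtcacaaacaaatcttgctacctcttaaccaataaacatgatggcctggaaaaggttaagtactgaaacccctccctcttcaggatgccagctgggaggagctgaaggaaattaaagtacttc
Ly6c1 itself had a UMI in 0.309% of the earlier and 5.56% of the later monocytes. By later sample, it was found in 21.6% of Balb/c monocytes, 3.88% on HT2 and 0% to 1.85% in the others.

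Promoters of 3 genes whose RNA differed between the Ly6c2-detected and undetected monocytes (values further on) are shown because they hold a searched motif. Cd300ld encodes a receptor of the CD300 family and lies at chr11:114989887-114990136 on the minus strand, with the PU.1-type match 143 bases before its start.
Cd300ld: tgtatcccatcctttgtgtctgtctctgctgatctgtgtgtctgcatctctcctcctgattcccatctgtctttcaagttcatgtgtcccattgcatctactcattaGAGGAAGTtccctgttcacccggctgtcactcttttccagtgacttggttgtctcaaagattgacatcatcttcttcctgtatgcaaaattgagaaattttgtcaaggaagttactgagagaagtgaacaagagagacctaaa
Fcgr4 encodes an activating Fc receptor for antibodies and lies at chr1:171018676-171018925 on the plus strand. Its capitals mark a match to the interferon-response type motif (TTTC, then 2 bases of any kind, then TTTC) on the other strand 73 bases before the start, and the PU.1-type motif on the other strand 24 bases before it.
Fcgr4: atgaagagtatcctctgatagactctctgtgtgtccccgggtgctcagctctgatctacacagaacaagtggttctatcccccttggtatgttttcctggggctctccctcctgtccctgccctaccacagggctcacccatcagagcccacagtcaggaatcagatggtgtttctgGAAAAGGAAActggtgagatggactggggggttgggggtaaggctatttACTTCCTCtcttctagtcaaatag
Bst2 encodes tetherin, an interferon-induced protein that holds budding viruses at the cell surface, and lies at chr8:71537473-71537722 on the minus strand. Its capitals mark 2 overlapping interferon-response type matches, at 130 and 124 bases before the start.
Bst2: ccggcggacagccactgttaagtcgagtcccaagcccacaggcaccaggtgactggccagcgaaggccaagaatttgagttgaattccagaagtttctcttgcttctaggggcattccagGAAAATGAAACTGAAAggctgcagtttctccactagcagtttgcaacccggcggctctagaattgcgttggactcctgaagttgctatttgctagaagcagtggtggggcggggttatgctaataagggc
The first base of the interferon-response motif on either strand decided its position.

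The label was checked against markers outside the gate. Lyz2, which encodes lysozyme, had a UMI in 97.5% of earlier and 95.4% of later monocytes, against 8.6% and 21.5% of B cells. Cybb, the catalytic subunit of the phagocyte oxidase, was found in 90.1% and 95.4%, and Fcer1g, the signalling chain of Fc receptors, in 96.6% and 98.4%. Other myeloid cells, defined further on, carried these genes too. Lyz2 was found in 90.7% and 99.1% of C1q macrophages and in 99.3% and 98.7% of Retnla cells. Cybb was found in 81.4% and 87.2% of C1q macrophages and Fcer1g in 94.7% and 95.3%. Both faces of the monocyte appeared: Ccr2 in 53.7% and 59.7% of cells, and on the patrolling side Ace in 36.7% and 57.1%, Cx3cr1 in 47.8% and 71.4%, and Treml4 in 26.5% and 38.3%. Ccr2 was more widespread in Retnla cells (87.1% and 89.8%), and Cx3cr1 was found in 59.5% and 51.2% of C1q macrophages. Ace was scarce in C1q macrophages (2.24% and 4.46%) and Retnla cells (1.43% and 5.93%). Treml4 was scarce there as well (5.32% and 5.94%, and 0.717% and 2.12%). Markers of other cells were scarce, with the dendritic genes Flt3 in 3.4% and 8.73% and Zbtb46 in 1.23% and 3.57%, the neutrophil gene Retnlg in 0.309% and 0.794%, and the tissue macrophage gene Folr2 in 0% and 2.98%.

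Some markers were found more widely. Cd209a, a gene of monocyte-derived dendritic cells, had a UMI in 6.48% and 11.1% of monocytes, and Csf3r, the receptor for the neutrophil growth factor, in 15.4% and 29.2%. Apoe, high in macrophages, was present in 79.3% and 82.1%. The antibody gene Igkc was found in 89.8% of earlier and 78% of later monocytes and the milk protein gene Csn2 in 40.7% and 75.2%, the latter close to B cells (38.6% and 71.6%), so free RNA was present in both libraries. All of these measures are shares of cells with a UMI and rise with depth, and the later monocytes were deeper.

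The libraries held 56300251 (earlier) and 90642638 (later) UMIs, with a median of 1599 and 3049 UMIs per cell. Monocytes had medians of 2010.5 and 4264 UMIs and of 887 and 1759 genes. The libraries shared 139 cell barcodes, none of them (0) among monocytes. Calls of Scrublet, which marks droplets with 2 cells, took out 43 monocytes, and of the remainder 596 carried 1 tag, 86 carried more than 1 and 146 carried no tag. At the edges of the gate, 105 monocytes held exactly 2 UMIs of the marker sum while 177 cells held 1 and met all else. For the other limits the cells just inside and just outside numbered 328 and 1393 for Csf1r, 142 and 32 for the C1q genes, and 114 and 20 for Retnla. Of the Ly6c2-detected monocytes 114 held a single UMI of it.

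Among the gate's own genes, Plac8 was the most widespread of the 4 marker genes, with a UMI in 93.6% of the earlier and 92.6% of the later monocytes. Ms4a4c was found in 36.0% and 53.7%, Chil3, which encodes a secreted chitinase-like protein, in 47.7% and 40.6%, and Ly6c2 in 42.2% and 49.0%.

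The share of monocytes differed widely between samples, and was highest in the 2 HT2 samples of their libraries. In the earlier library monocytes made up 2.94% of single-tag cells on HT2 (83 of 2826 cells, 95% Clopper-Pearson interval 2.35 to 3.63), 1.01% in Nulliparous (57 of 5632, 0.767 to 1.31), 1.23% in Gestation (54 of 4408, 0.922 to 1.60) and 1.07% in Lactation (26 of 2421, 0.703 to 1.57). The interval of HT2 lay above the other 3, which overlapped each other. In the later library the share was 5.74% on HT2 (103 of 1795, 4.71 to 6.92), 3.75% in Balb/c (74 of 1972, 2.96 to 4.69), 2.57% in Involution (57 of 2219, 1.95 to 3.32) and 2.45% in GF (52 of 2123, 1.83 to 3.20). It was 1.79% in Lactation (14 of 783, 0.981 to 2.98), 1.62% in Gestation (54 of 3328, 1.22 to 2.11) and 0.920% in Regression (22 of 2392, 0.577 to 1.39). The interval of HT2 began just above that of Balb/c, while Involution, GF, Lactation and Gestation could not be ordered by them. Intervals cover counting error only, since each name has 1 sample per library.

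The order depended on depth for some samples. Each cell was thinned to 1000 UMIs and shallower cells were left out, which kept 2002 to 4067 cells of each earlier and 772 to 3281 of each later sample. HT2 then had the highest share in both libraries, at 1.90% and 3.43%, while Balb/c had 1.43%, beside 1.57% for Involution and 1.25% for GF. Monocytes per C1q macrophage (Csf1r present and at least 4 UMIs of the C1q genes) were 1.57 on HT2, 0.377 in Nulliparous, 0.213 in Gestation and 0.164 in Lactation of the earlier library. In the later library this ratio was 1.57 in Balb/c, 0.871 in Gestation, 0.831 on HT2, 0.684 in GF, 0.5 in Lactation, 0.365 in Involution and 0.265 in Regression. Later Gestation, with one of the lower shares of all cells, thus had one of the higher ratios to macrophages.

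**Figure D1:**
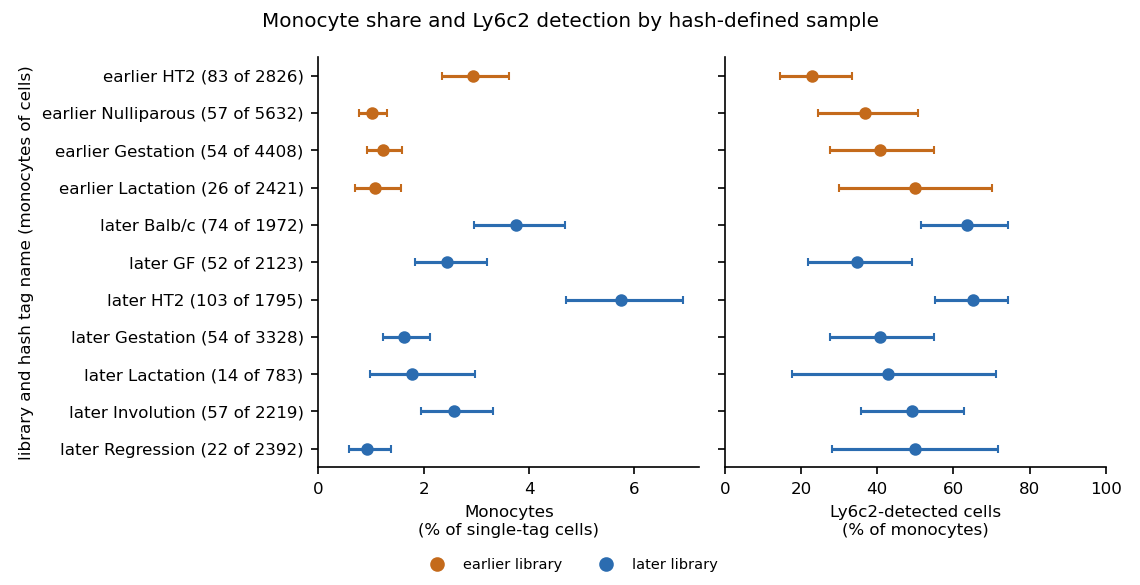
Monocytes as a percentage of single-tag cells (left) and Ly6c2-detected cells as a percentage of those monocytes (right) in each hash-defined sample. Points are the shares and bars are 95% Clopper-Pearson intervals, with orange for the earlier and blue for the later library. The HT2 samples, at 2.94% and 5.74%, are the highest of their libraries on the left.

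Between Lactation and Gestation, the names with a sample in both libraries, the monocyte share did not move one way. It was lower in Lactation by 0.151 percentage points in the earlier library and higher by 0.165 points in the later. The mean difference was 0.00714 points (exact permutation test within libraries, two-sided, p = 1, where the smallest p the design allows is 0.5).

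The Ly6c2-detected share of monocytes ran from 22.9% on earlier HT2 to 65.0% on later HT2, so the disputed tag held both ends. In the earlier library it was 36.8% in Nulliparous, 40.7% in Gestation and 50% in Lactation. In the later library Balb/c had 63.5%, Regression 50%, Involution 49.1%, Lactation 42.9%, Gestation 40.7% and GF 34.6%. Balb/c also had the highest share of monocytes with a UMI of Ly6c1 (21.6%), and confusion of reads between the pair was not tested. The interval of later HT2 (55.02 to 74.2) lay above that of GF (22.0 to 49.1) and ended just clear of that of Gestation (27.6 to 54.97), and those of the other later samples overlapped it. At 1000 UMIs per cell the share was 18.4% on earlier HT2 and 59.3% on later HT2, the lowest value of the earlier and the highest of the later library. Balb/c had 37.0%, beside 38.5% in GF, 37.5% in Lactation and 35.3% in Involution, later Gestation had 18.5%, and Regression had 0 of 9 monocytes (interval up to 33.6%). At this depth the interval of later HT2 (45.7 to 71.9) lay above those of Gestation (6.30 to 38.1) and Regression and overlapped those of the other 4 later samples. Lactation minus Gestation was 9.26 points in the earlier and 2.12 points in the later library, a mean of 5.69 points (exact permutation test, two-sided, p = 0.5, the smallest possible).

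Ly6c2 is not a monocyte gene alone, so its values in other cells are set beside those of monocytes. A Ly6c2 UMI was found in 42% of earlier and 49.4% of later monocytes without a doublet call, at median depths of 1978 and 4205 UMIs. In C1q macrophages it was found in 7.99% and 7.09%, at 2279 and 4405 UMIs, and in Retnla cells, described further on, in 3.94% and 4.66%, at 3241 and 6550 UMIs. B cells had 24.7% and 6.42%, at only 1037 and 2046.5 UMIs. Antibody-secreting plasma cells, which express the gene, had 79.1% and 76.7%, at 6544 and 14336 UMIs. As a level, Ly6c2 stood at 6.14 and 6.19 UMIs per 10000 in monocytes, at 1.35 and 0.493 in C1q macrophages and at 7.94 and 1.45 in B cells. Earlier B cells were thus not below monocytes, but these values include cells with no tag or several. Among single-tag earlier B cells the share was 6.02% in Nulliparous, 7.69% in Gestation, 11.7% on HT2 and 30.8% in Lactation. Their level was not computed. Within samples, the monocyte share had an interval above that of tagged B cells in 9 of 11 samples. It overlapped on earlier HT2, at 22.9% (14.4 to 33.4) against 11.7% (7.41 to 17.4), and in earlier Lactation, at 50% (29.9 to 70.1) against 30.8% (19.9 to 43.4). Tagged B cells had a lower median depth than monocytes in every sample, and such shares rise with depth. The part of depth in these gaps was not tested. The B cell shares can hold Ly6c2 RNA of the cells themselves as well as free RNA, and these parts were not tested. In any sample a detected monocyte may hold free Ly6c2 RNA, and an undetected one can be a monocyte whose Ly6c2 RNA was missed. Detected monocytes had more UMIs, with medians of 2186 against 1823 in the earlier and 4848.5 against 3518 in the later library.

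Ly6c2-detected and undetected monocytes differed along the classical and patrolling programmes. RNA of the classical genes Fn1, F13a1, Lyz2 and Ccr2 was higher in detected monocytes, and RNA of the patrolling genes Ace, Ear2, Spn, Pou2f2 and Nr4a1 was higher in undetected ones. UMIs were summed per sample and group of cells over the 10 samples with at least 10 cells in each group, which left out later Lactation (6 and 8 cells). The sums were compared in edgeR (quasi-likelihood test) with the sample as a block. Of 1308 genes tested, 146 (11.2%) passed a Benjamini-Hochberg adjusted p of 0.05, 70 higher (5.35%) and 76 lower (5.81%) in detected cells. With the block removed 102 genes passed, all among the 146. With each cell thinned to 1000 UMIs, only 200 genes could be tested and 11 passed, 10 of them shared.

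In the classical list, 8 of the 13 genes tested (of 19 listed) were higher in detected monocytes and none (0) lower, with a median log2 fold change of 0.62 against 0.00 over all genes. Fn1, which encodes the matrix protein fibronectin, stood at 1.12, 6.76 and 13.1 UMIs per 10000 (lowest, median and highest sample) in detected and at 0.354, 1.62 and 4.63 in undetected monocytes. It was higher in 10 of 10 samples, with a log2 fold change of 1.85 ± 0.206 (SE) and an adjusted p of 1.12e-06. The ranges overlapped between samples, but within each sample the detected cells were higher. F13a1, which encodes the A chain of coagulation factor XIII, stood at 0.373, 3.71 and 4.96 against 0, 0.856 and 3.16, a log2 fold change of 1.91 ± 0.274 (adjusted p = 1.31e-05). In the earlier library alone F13a1 did not pass.

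Lyz2 stood at 118, 144 and 157 UMIs per 10000 in detected and at 49.5, 80.3 and 128 in undetected monocytes. Its log2 fold change was 0.94 ± 0.111 (adjusted p = 1.65e-06). Detected cells lay within a narrow band of Lyz2 in all samples, while undetected cells spread more than 2-fold. Ccr2, whose receptor brings monocytes out of the marrow and into tissue, stood at 8.22, 11.3 and 14.7 against 1.42, 6.04 and 11.3, a log2 fold change of 0.93 ± 0.143 (adjusted p = 3.56e-05). The smallest gap in Ccr2 was in later Regression, at 11.8 against 11.3, and the widest in later Gestation, at 9.55 against 1.42. The calcium-binding S100a6 rose by 0.70 on the log2 scale and was higher in 9 of 10 samples, and S100a4, Hp (haptoglobin) and Emb were the other list genes that passed. Cybb, Gpr141, Ifitm6, Sirpb1c and Tmem176b were tested and did not pass. Vcan, Mgst1, Cd14, Thbs1 and Fcgr1 were among the list genes too low to be tested.

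In the patrolling list, 16 of the 20 genes tested (of 25 listed) were lower in detected monocytes and none (0) higher, with a median log2 fold change of -0.99. Nr4a1, whose product these cells depend on, stood at 2.58, 4.51 and 8.58 UMIs per 10000 in detected and at 3.35, 7.93 and 17.3 in undetected monocytes. The log2 fold change was -0.80 ± 0.103 (adjusted p = 4.51e-06), and every one of the 10 samples had the same direction. Nr4a1 is also an early-response gene that cell dissociation can induce, a part that was not tested. Pou2f2, which encodes the transcription factor Oct-2, stood at 1.86, 3.45 and 4.78 against 3.35, 7.87 and 10.5, and Cebpb, which encodes a basic leucine zipper factor, fell by 0.52 on the log2 scale (adjusted p = 0.000327).

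Among surface and secreted products of the list, Ace, the angiotensin-converting enzyme, stood at 0.478, 2.14 and 4.33 in detected and 2.91, 5.87 and 10.9 in undetected monocytes. The log2 fold change of Ace was -1.36 ± 0.165 (adjusted p = 2.12e-06). Ear2, a ribonuclease of the eosinophil-associated family, stood at 0, 1.63 and 2.96 against 1.72, 4.51 and 9.09, with a log2 fold change of -1.61 ± 0.197 (adjusted p = 2.14e-06); its near-identical family members make the exact gene uncertain. Spn, the sialomucin CD43 that marks patrolling monocytes in flow cytometry, stood at 0.397, 1.54 and 2.98 against 1.67, 3.62 and 5.82 (log2 fold change -1.11 ± 0.149, adjusted p = 5.87e-06). Itgal, the alpha chain of the integrin LFA-1 with which these cells hold to the endothelium, stood at 2.91, 4.15 and 6.34 against 4.41, 8.07 and 13.1 (log2 fold change -0.81 ± 0.118, adjusted p = 1.5e-05). All 4 were lower in detected cells in each of the 10 samples.

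Further list genes that fell were Eno3 (muscle enolase), by 1.86, and Pglyrp1 (a peptidoglycan-binding protein), by 1.78, although 15.6% of the Pglyrp1 UMIs of the detected and 19.7% of those of the undetected cells lay in 1 cell. The scavenger receptor Cd36 fell by 1.61 and the Fc receptor gene Fcgr4, whose promoter is shown above, by 1.54 (adjusted p = 0.000509). Cd300ld, also shown above, and Treml4, Gngt2, Adgre4 and Hes1 fell too. Cx3cr1, the fractalkine receptor that often defines patrolling monocytes, did not pass (log2 fold change -0.34), nor did Klf2, Clec4a3 and Fabp4.

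**Figure D2:**
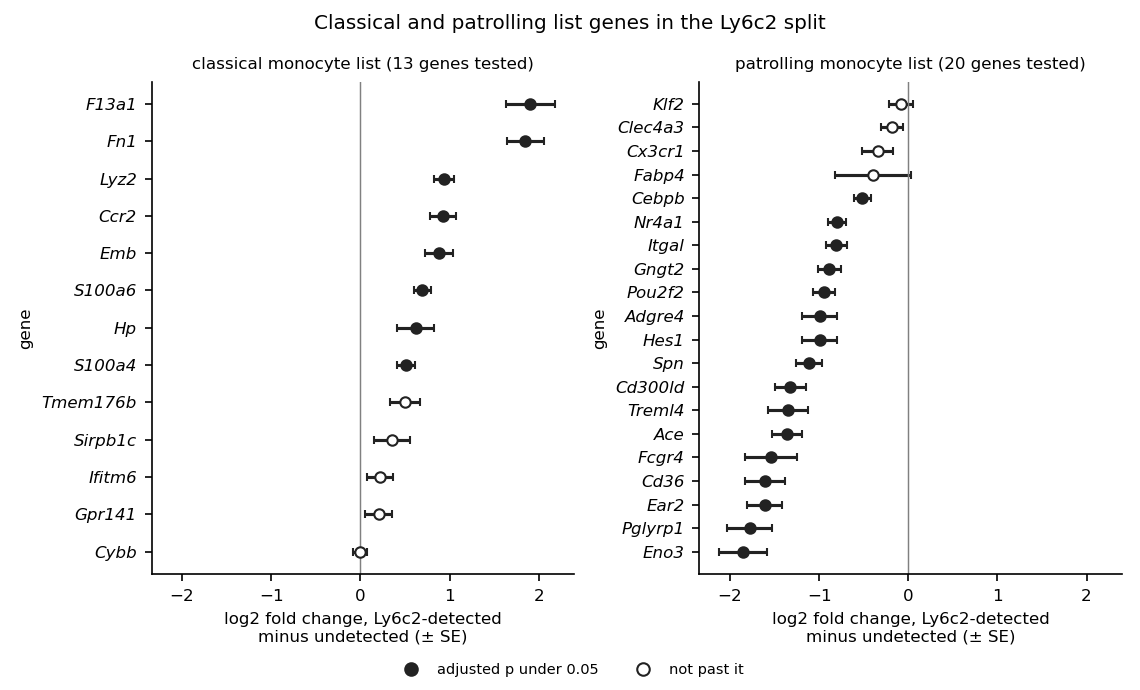
Log2 fold change of the tested genes of the classical list (left, 13 genes) and the patrolling list (right, 20 genes), Ly6c2-detected minus undetected monocytes, over 10 samples. Bars are standard errors, and filled points passed an adjusted p of 0.05: 8 on the left, all above 0, and 16 on the right, all below 0.

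**Figure D3:**
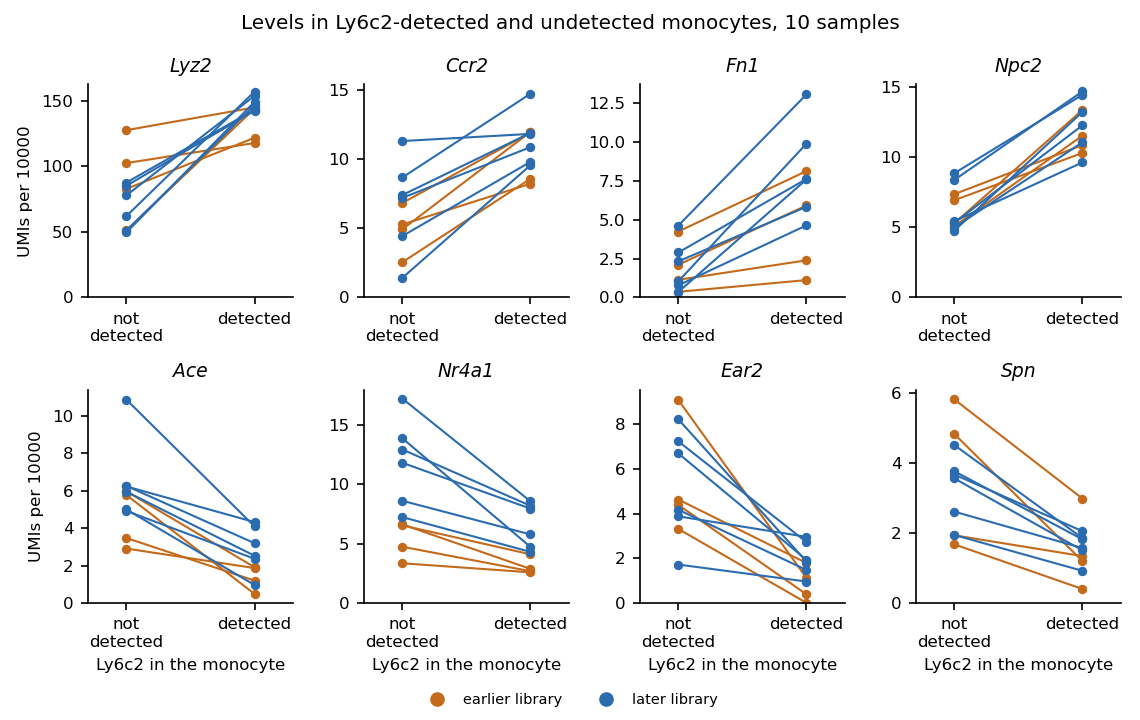
UMIs per 10000 in Ly6c2-undetected and detected monocytes for 4 genes that were higher (top) and 4 that were lower (bottom) in detected cells. Each line joins the 2 groups of cells of 1 sample, orange for the earlier and blue for the later library. All lines rise for Lyz2, Ccr2, Fn1 and Npc2 and fall for Ace, Nr4a1, Ear2 and Spn.

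Outside the lists, Npc2, which encodes a lysosomal cholesterol carrier, had the smallest p of the 1308 genes. It stood at 9.65, 11.9 and 14.7 UMIs per 10000 in detected and at 4.78, 5.39 and 8.87 in undetected monocytes (log2 fold change 0.98 ± 0.0989, adjusted p = 2.88e-07). The 2 ranges did not overlap. How many of the 1308 genes had no overlap in this split was not counted. Ifi209, Pnp (a purine salvage enzyme) and Capg (an actin-capping protein) also rose, by 1.07, 1.03 and 0.98. Of the genes lower in detected cells, Hfe, which encodes a regulator of iron uptake, stood at 0, 0.597 and 0.993 against 1.39, 1.64 and 2.39, again without overlap (log2 fold change -1.49, adjusted p = 1.31e-05). Dusp5, a phosphatase of the ERK pathway, fell by 1.49 and the adaptor gene Stap1 by 1.42.

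Interferon-stimulated genes stood higher in the detected cells, though few could be tested. Of 25 listed genes 7 passed the count filter, 4 of them were higher and 0 lower, with a list median of 0.53. Ifi27l2a stood at 27.6, 32.7 and 46.9 UMIs per 10000 in detected and at 13.6, 22.1 and 27.0 in undetected monocytes, with no overlap between the ranges (log2 fold change 0.74 ± 0.0863, adjusted p = 1.65e-06). Bst2, whose promoter holds the paired motif, stood at 1.53, 3.39 and 7.08 against 0.896, 1.28 and 2.78 (log2 fold change 1.08 ± 0.174, adjusted p = 6.19e-05). Irf7, the transcription factor that amplifies interferon, rose by 1.02 (adjusted p = 0.000426), but not past the threshold in the earlier library alone. The membrane protein gene Ifitm3 rose by 0.45. Ifi204 and Zbp1 did not pass, and the core genes Isg15, Ifit1, Ifit3, Mx1 and Rsad2 were too low to be tested.

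Bst2 and Tcf4 are also markers of plasmacytoid dendritic cells, and both testable genes of that list were higher in detected cells. The summed level of the list ran from 2.29 to 8.20 UMIs per 10000 in detected and 1.16 to 2.18 in undetected earlier monocytes, and from 4.18 to 7.74 against 1.66 to 4.93 in later ones. Its defining marker Siglech is 0 by the gate. The part of such cells in the rise of Bst2 was not tested.

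In the next lists the shares to compare are those of all 1308 genes, 5.35% higher and 5.81% lower, and with few genes a list a single call is near them. Among chemokine receptors and adhesion genes, Ccr2 was higher and 5 of 11 tested genes were lower in detected monocytes: Cxcr4, Itgal, Itgb1, Itgb2 and Spn. Cxcr4, which retains cells in marrow and tissue, stood at 0, 1.34 and 2.39 against 1.09, 2.54 and 5.20 (log2 fold change -1.01 ± 0.185, adjusted p = 0.000296). Detected cells thus had more RNA of the receptor for entry, and undetected cells more of both chains of LFA-1, Itgal and Itgb2. Of 14 transcription factor genes 1 was higher and 3 lower: Irf8 rose by 0.84 (adjusted p = 0.0112), while Nr4a1, Cebpb and Spi1 fell; in the earlier library alone Irf8 stood at -0.09, and neither Irf8 nor Spi1 passed with DESeq2. Of the inflammatory list 2 of 8 genes, the chemokines Ccl9 (0.73) and Ccl6 (0.45), rose. Il1b, at -0.49 (adjusted p = 0.111), and Ccl4, at 0.75 (adjusted p = 0.0521), did not pass. The low-affinity receptor gene Fcgr3 rose by 0.55 while Fcgr4 fell, so the 2 activating Fc receptors moved in opposite directions; Fcgr3 did not pass with DESeq2.

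Genes of cell division and of macrophages gave little. Tubb5 and Hmgb2 fell by 0.80 and 0.64 out of 3 testable cell cycle genes, and neither passed without the block. Only 2 of 24 macrophage differentiation genes, Apoe and Selenop, could be tested and neither passed (log2 fold changes -0.12 and 0.39). Their list's sum had medians of 31.5 UMIs per 10000 in both groups of the earlier library and of 25 and 26.6 in the later. Neutrophil markers were even too, with medians of 1.36 and 1.34 in the earlier library and of 2.05 and 1.77 in the later, except in Balb/c, where they reached 84.4 in detected and 479 in undetected cells, nearly all in 1 cell of each. Without the 3 earlier and 5 later single-tag monocytes that held at least 10 UMIs of S100a8 and S100a9 together or of Igkc, 157 genes passed, 138 of them shared with the 146.

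The motifs were counted over the 250 upstream bases of genes with a RefSeq entry, 58 of the 70 higher and 55 of the 76 lower genes. The PU.1-type letters were found in 3.45% (2 genes) of the higher and 9.09% (5 genes, Cbfa2t3, Cd300ld, Dusp5, Fcgr4 and Rel) of the lower set, against 3.47% of 1038 tested genes and 2.79% of all 27025 in the table. The interferon-response type letters were found in 13.8% (8 genes) of the higher and 9.09% (5 genes) of the lower set, against 4.82% of tested and 3.46% of all genes. The higher set's genes were Aif1, Bst2, Emilin2, Ifi203, Mndal, Serp1, Slfn5 and Tgfbi. AAAGGTCA, the single-copy site of the NR4A family, was found in 1.72% of the higher and 0% of the lower set, against 1.16% of tested genes, and TTGCGCAA, the C/EBP palindrome, in 1.72% and 0%, against 0.578%. These shares are descriptions of letters in a short window.

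The class II genes of the major histocompatibility complex (MHC), with which a cell shows peptides to CD4 T cells, did not differ in the fit over both libraries: 0 of 6 tested genes passed, with a median log2 fold change of -0.23. The samples nevertheless fell apart by library, and a test of that difference was added after the values had been seen. Summed over the list, detected and undetected monocytes had 174 and 72.2 UMIs per 10000 on earlier HT2, 78.5 and 43.6 in earlier Gestation, 218 and 130 in earlier Lactation and 87.5 and 87.6 in earlier Nulliparous. In the later library the values were 101 and 198 in Balb/c, 87.2 and 190 in GF, 84.7 and 213 on HT2, 142 and 264 in Involution and 205 and 223 in Regression. Later Gestation went the other way, with 108 and 80.8. The higher class II level thus lay with the Ly6c2-detected cells in 3 of 4 earlier samples and with the undetected cells in 5 of the 6 later samples in the fit.

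The interaction of Ly6c2 detection and library in edgeR's quasi-likelihood test passed for 5 of 1308 genes (0.382%), Cd74, H2-Eb1, H2-Aa, H2-Ab1 and Cx3cr1. For Cd74, the invariant chain of class II, the detected minus undetected log2 fold change was 0.72 in the earlier and -0.68 in the later library. The interaction was -1.44 ± 0.243 (adjusted p = 0.00151), and detected cells were higher in 4 of 4 earlier and 1 of 6 later samples. H2-Aa, which encodes an alpha chain, gave 0.86 and -0.85 (interaction -1.76 ± 0.308, adjusted p = 0.00151) with the same sample counts. The beta chain genes H2-Eb1 and H2-Ab1 gave 0.73 and -0.96, and 0.73 and -0.75, with detected cells higher in 3 of 4 earlier and 1 of 6 later samples. Their interactions were -1.74 ± 0.304 (adjusted p = 0.00151) and -1.53 ± 0.284 (adjusted p = 0.00283).

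Cx3cr1 also differed by library: its log2 fold change was -1.48 in the earlier and -0.02 in the later library (interaction 1.43 ± 0.314, adjusted p = 0.0229). In the earlier library detected cells stood at 1.2 to 2.61 and undetected cells at 4.50 to 6.18 UMIs per 10000, without overlap. In the later library they stood at 2.85 to 4.87 and 3.29 to 5.49.

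The calls rested on the earlier HT2 sample and on the tool. Without the earlier HT2 sample 0 genes passed in edgeR (78 at an unadjusted p under 0.05), with class II interactions of -1.24 to -1.52 and adjusted p of 0.0865 to 0.101. Without the later HT2 sample the 4 class II genes passed (adjusted p of 0.00458 to 0.00931). DESeq2, which tested 15895 genes, called 0 (156 at an unadjusted p under 0.05), where edgeR had 100 unadjusted among its 1308, and gave class II interactions of -1.39 to -1.70 with adjusted p of 0.507 to 0.711. At a marker sum of at least 4, H2-Eb1 (adjusted p = 0.0671) and Cx3cr1 (0.183) did not pass. Cx3cr1 also did not pass without earlier HT2 (0.220), earlier Nulliparous (0.0936), earlier Gestation (0.0735), later Balb/c (0.0520) or later HT2 (0.0653). The 2 libraries differ in year, depth and samples, which cannot be told apart. Markers of conventional dendritic cells, which carry much class II, moved beside it: their sum had medians of 1.70 in detected and 1.54 in undetected earlier monocytes, and of 2.29 and 4.73 in later ones, with ranges of 1.67 to 4.47 and 1.24 to 7.24. Flt3 and Zbtb46 were found in the shares of cells given above. Their part in the class II values was not tested.

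**Figure D4:**
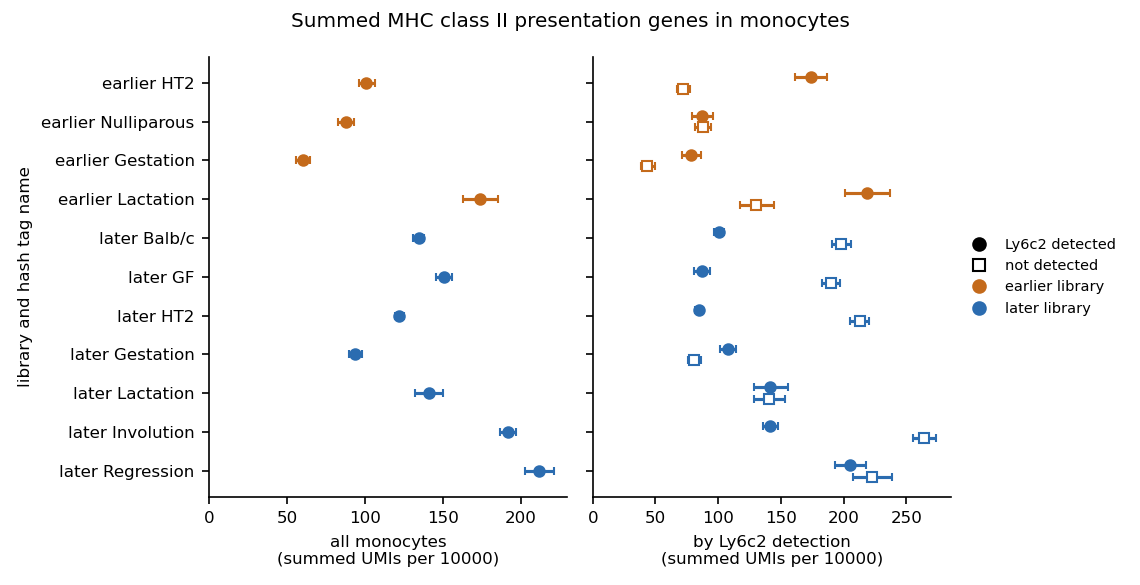
Summed UMIs per 10000 of the MHC class II presentation genes in all monocytes of each sample (left) and by Ly6c2 detection (right). Filled circles are all or Ly6c2-detected monocytes and open squares are undetected ones, orange for the earlier and blue for the later library, and bars are 95% Poisson intervals for counting error. Detected cells lie to the right of undetected cells on earlier HT2 (174 against 72.2) and to the left on later HT2 (84.7 against 213).

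Class II RNA was higher in Lactation than in Gestation monocytes of the earlier library. The later library had the same direction, but there much of the difference lay in 1 of 14 Lactation cells. H2-Ab1 stood at 36.4 (earlier) and 25.4 (later) UMIs per 10000 in Lactation and at 11.9 and 14.6 in Gestation. Of 1334 genes tested with the library as a block, 5 (0.375%) passed, all 5 higher in Lactation, and 4 of them were the class II genes H2-Ab1, H2-Eb1, H2-Aa and Cd74. The log2 fold change of H2-Ab1 was 1.21 ± 0.24 (edgeR's quasi-likelihood test, adjusted p = 0.000518), and it was higher in 2 of 2 libraries. H2-Eb1 stood at 36.3 and 14.5 in Lactation and at 7.23 and 11.6 in Gestation, a log2 fold change of 1.32 ± 0.266 (adjusted p = 0.000518) that lay mainly in the earlier library. H2-Aa stood at 42 and 23.6 against 12.9 and 16.1 (log2 fold change 1.13 ± 0.237), and Cd74 at 52.1 and 70.2 against 23.1 and 46.8 (0.89 ± 0.188, both with an adjusted p of 0.00085). The groups, of 2 samples each, did not overlap for H2-Ab1, H2-Eb1, H2-Aa and Cd74. How many of all 1334 genes had no overlap was not counted, so this adds little to the test.

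In later Lactation 1 cell held 36.9% of the H2-Ab1, 39.1% of the H2-Aa, 40.6% of the H2-Eb1 and 29.3% of the Cd74 UMIs. Without that cell later Lactation stood at 17.7 for H2-Ab1 and 54.6 for Cd74, still above later Gestation, but at 15.8 for H2-Aa and 9.49 for H2-Eb1, below it. Removing it, a check chosen after the values were seen, left 0 genes called (51 of 1271 at an unadjusted p under 0.05), and the log2 fold changes were 0.96 for H2-Ab1 (adjusted p = 0.452), 1.06 for H2-Eb1 (0.693), 0.86 for H2-Aa (0.541) and 0.70 for Cd74 (0.452). With the cell richest in class II RNA removed from each of the 4 samples, 0 genes passed (45 of 1238 unadjusted). Earlier Lactation remained higher without the richest cells, at 29.9 against 10.5 for H2-Ab1. A UMI of H2-Ab1 was found in 46.2% of 26 earlier Lactation and 37.0% of 54 earlier Gestation monocytes. The richest cell held 9 UMIs of conventional dendritic cell markers in earlier Lactation and 0 in earlier Gestation. In the later library it held 1 in Lactation and 11 in Gestation. The part of dendritic cells in these values was not tested.

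The fifth gene was Tubb5, a tubulin that rises in dividing cells, at 2.39 and 6.65 in Lactation against 1.37 and 1.44 in Gestation (log2 fold change 1.71 ± 0.399, adjusted p = 0.00547), with 54.4% of the Lactation UMIs in 1 cell. The class II list had a median of 1.01, with 4 of 6 genes called. The classical list had 0 of 14 genes called and a median of -0.23, the patrolling list 0 of 21 and -0.20, and the interferon list 0 of 8 and 0.37. By the size of their p, the genes next in line were Mrc1, the mannose receptor of macrophages (log2 fold change 2.79, adjusted p = 0.0735), Clec4e, a receptor for mycobacterial glycolipid (-2.94, adjusted p = 0.0967) and Arl5c (-1.99, adjusted p = 0.0999).

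These calls rested on 54 and 26 earlier and 54 and 14 later cells with 1 residual degree of freedom, and did not survive most changes. The prior degrees of freedom that edgeR estimated for this fit had an infinite median. Its quasi-likelihood spread was thus taken from the genes together and hardly from each gene's own 4 samples. No gene (0) passed in edgeR without the library block (38 at an unadjusted p under 0.05) or at a marker sum of at least 4 (37 unadjusted), nor in DESeq2 (0 adjusted, 13 unadjusted), against 59 unadjusted here. With doublet calls kept 12 genes passed, all 5 among them. With 1 of the 4 samples left out and no block, 0 to 4 passed, and the 4 came without later Lactation.

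Over all monocytes, the class II sum ran from 60.3 UMIs per 10000 in earlier Gestation to 212 in later Regression. In the earlier library it was 101 on HT2, 87.6 in Nulliparous and 174 in Lactation. In the later library it was 93.7 in Gestation, 122 on HT2, 135 in Balb/c, 141 in Lactation, 151 in GF and 192 in Involution. Gestation was thus the lowest of both libraries, and the post-nursing samples Involution and Regression were the highest of the later one. Each name but Gestation and Lactation has 1 sample, so these orders carry no replicate error.

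Other names could only be described, by genes that differed at least 2-fold between the sample's monocytes and all other tagged monocytes of its library. The later Balb/c monocytes held the largest single-gene ratios of the 11 samples. H2-Ea, the alpha chain of the class II molecule I-E, which only some inbred strains express, had 444 UMIs in Balb/c against 1 in the other 6 samples, or 11.5 (95% Poisson interval 10.5 to 12.7) against 0.00723 (0.000183 to 0.0403) per 10000. Ifi202b, an interferon-inducible gene known to vary between strains, had 76 against 1 (1.98 against 0.00723 per 10000). Ly6i, of the Ly6 family, had 4 UMIs in Balb/c against 216 in the others (0.104 against 1.56 per 10000). Nxpe4 had 2 against 189 (0.0520 against 1.37 per 10000). The ribosomal protein gene Rpl26 stood at 1.33 against 16.9 per 10000, while Rps18-ps6 and Gm15772 were higher; reads of ribosomal genes and their near-identical copies can be split between them, so these 3 are uncertain. In all, 180 genes were past 2-fold higher and 366 lower of 6265 that could be. The gate gene Chil3 stood at 1.12 per 10000 in Balb/c, against 3.93 to 12.7 in the other 10 samples of both libraries.

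Later Involution had 120 genes past 2-fold higher and 453 lower of 6265. Its 5 highest ratios were those of Gbp5, Mgl2, Rsad2, Ifit2 and Ifit3. Rsad2, which encodes the antiviral enzyme viperin, had 73 UMIs against 75 in all other tagged later monocytes (2.60 against 0.504 per 10000). Ifit2 and Ifit3 stood at 1.39 against 0.303 and 1.57 against 0.343, the guanylate-binding Gbp5 at 0.677 against 0.108, and the lectin gene Mgl2 at 1.57 against 0.296. Among the lowest ratios of other samples, later Gestation had Rsad2 at 0.0928 against 0.941, later GF had Ifi44 at 0.0431 against 0.671 and later HT2 had Ifi44 at 0.0802 against 0.788. In that order, these samples had 306, 287 and 192 genes past 2-fold lower. The whole interferon list summed to 127 UMIs per 10000 in Involution, to 106 on later HT2, the next highest in spite of its low Ifi44, and to 68.7 to 98.6 in the other 5 later samples.

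In the earlier library 1939 genes could be past 2-fold. Those higher and lower numbered 31 and 86 in Gestation, 24 and 97 in Nulliparous, 41 and 49 on HT2, and 67 and 97 in Lactation. Gestation monocytes had the heat shock genes Hspa1b and Hspa1a at 6.86 against 1.21 and 9.79 against 2.03 UMIs per 10000. Both are also induced when tissue is dissociated, which was not tested. Ccl5, a chemokine, stood at 7.69 against 2.46. Nulliparous monocytes had Vcan, a classical gene for the proteoglycan versican, at 2.03 against 0.354, and Fn1 at 5.78 against 2.22. On HT2 Vcan had 1 UMI against 36 in the other 3 samples (0.0678 against 1.23 per 10000), and HT2 also had the lowest Ly6c2-detected share. Lactation monocytes had 1 UMI of F13a1 against 108 (0.184 against 2.81 per 10000). They had 4 of Fn1 against 139 (0.736 against 3.61 per 10000), although 50% of them were Ly6c2-detected. The immediate early gene Egr1 had 1 UMI in the 14 later Lactation cells against 401 in the other 362 tagged later monocytes (0.151 against 2.36 per 10000). With so few cells, later Lactation had 1161 genes past 2-fold higher and 120 lower of 6265.

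The rest of the myeloid cells was used to place the monocytes. Against C1q macrophages of the same 11 samples, monocytes had more RNA of both the classical and the patrolling list and less of class II and of macrophage genes. Of 3523 genes 1480 (42%) passed in edgeR's quasi-likelihood test, 724 higher (20.6%) and 756 lower (21.5%); DESeq2 gave 860 higher and 1407 lower, and no filter on low counts 1096 and 1758. Both populations were chosen by expression, and the genes of both gates were left out. The median of all genes was -0.03.

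Patrolling genes marked the monocytes off from macrophages: 18 of 23 tested were higher and only Cd36 lower, with a list median of 1.59. Ace stood at 2.37, 4.03 and 8.01 UMIs per 10000 in monocytes and at 0, 0.135 and 0.800 in macrophages (log2 fold change 4.52 ± 0.268, adjusted p = 1.3e-11), and Nr4a1 at 3.04, 6.61 and 13.1 against 0.196, 1.12 and 2.96 (2.59 ± 0.192). Neither overlapped. Ceacam1, an adhesion molecule, and Serpinb10, a protease inhibitor, were higher by 4.0 and 5.65 on the log2 scale. Of the classical list 13 of 17 were higher and 3 lower (Cd14, Fcgr1 and Tmem176b), with a median of 1.76. Fn1 was higher by 3.51 and Ifitm6 by 3.74.

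Class II genes were lower in monocytes, 7 of 7, with a median of -1.86. H2-Ab1 stood at 11.9, 20.6 and 36.4 against 48.6, 83.7 and 97.8, so that the highest monocyte sample, earlier Lactation, lay below the lowest macrophage sample. All 10 testable macrophage genes were lower, with a median of -3.67: Pf4, a chemokine, by 7.28, Cd63, a lysosomal tetraspanin, by 5.82, and Apoe, at 7.94, 21.1 and 48.0 against 92.5, 163 and 300, by 3.09. Outside the lists Stab1, a scavenger receptor, was lower by 6.29 and Ms4a7 by 5.03. The highest monocyte sample in Apoe thus lay below the lowest macrophage sample.

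Retnla cells (at least 4 UMIs of Retnla and at most 1 of the C1q genes) numbered 542 and were the other near neighbour, compared in 10 samples (later Gestation had 9 such cells and was left out). Of 2129 genes 1044 (49.0%) passed, 525 higher (24.7%) and 519 lower (24.4%) in monocytes. The patrolling list again stood higher in monocytes, with 17 of 19 genes and a median of 2.72. Ace was higher by 5.15, the integrin gene Itgal by 4.21, Hes1 by 5.60 and Cx3cr1, at 3.23, 4.20 and 5.44 against 0, 0.179 and 0.526, by 4.01. Of the 7 testable interferon genes 7 were higher.

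The classical list split, with 7 of 13 genes higher and 3 lower in monocytes than in Retnla cells: Fn1, Ccr2 and F13a1. Fn1 stood at 0.736, 4.16 and 10.1 in monocytes and at 23.1, 32.9 and 45.9 in Retnla cells, without overlap (log2 fold change -3.07 ± 0.181, adjusted p = 6.15e-13). Fn1 RNA thus ordered the 3 populations, lowest in C1q macrophages and highest in Retnla cells, while Apoe ran Retnla cells (median 0.928), monocytes (21.1), C1q macrophages (163). Class II genes were lower in monocytes here too, 8 of 8, with a median of -1.44. Genes that set the Retnla cells apart were Fcrls, lower in monocytes by 7.76, the lipase Lpl by 4.10, and the chemokines Ccl6 and Ccl9 by 1.99 and 1.81. Ccl6 and Ccl9 were the same 2 chemokines that stood higher in Ly6c2-detected than in undetected monocytes.

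**Figure D5:**
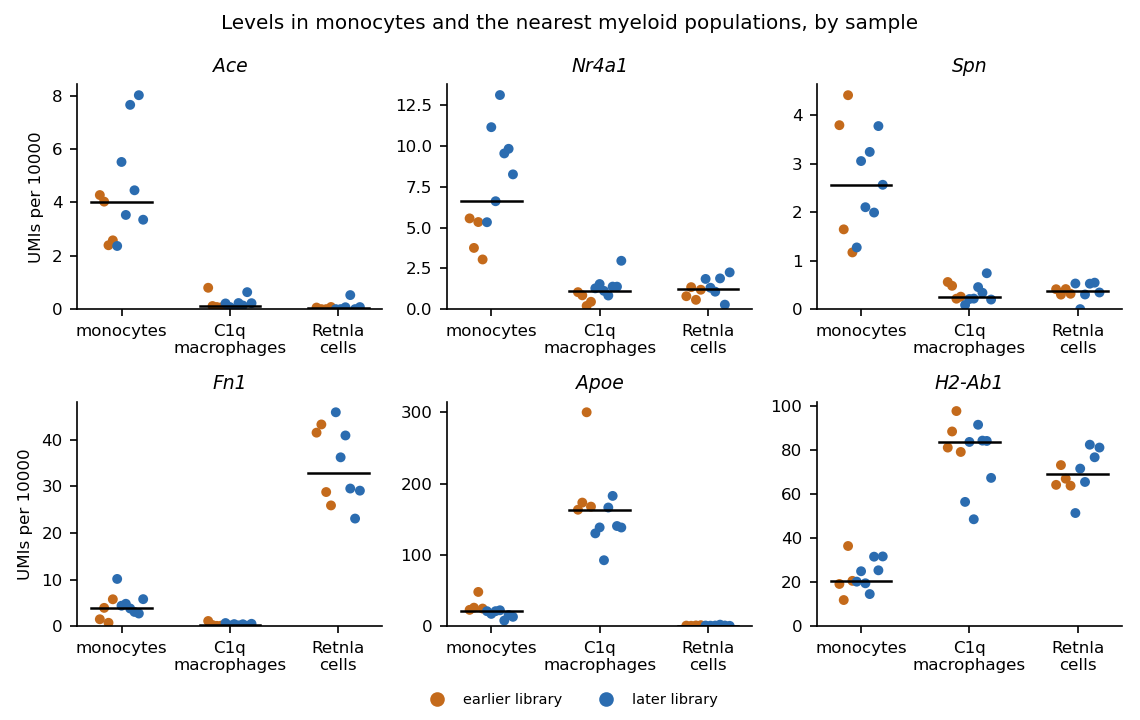
UMIs per 10000 of 6 genes in monocytes, C1q macrophages and Retnla cells, each point 1 sample (11, 11 and 10 samples), orange for the earlier and blue for the later library, with the line at the median. Ace, Nr4a1 and Spn stand highest in monocytes, Fn1 in Retnla cells and Apoe in macrophages, and monocytes have the least H2-Ab1 (median 20.6).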

How the data were processed

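The 2 pooled droplet libraries of CD45+ mammary gland cells were analysed, each with 1 deposited matrix of raw UMI counts by gene and cell barcode and 1 of raw hash tag counts, as the authors left them. Cell Ranger 6.1.0 and build mm10 are named, per the submitters' processing notes, while the header of the earlier gene matrix gives Cell Ranger 4, per the file headers. The tag sheets that pair tags with names are the authors' deposited ones. Matrices were matched by symbol (55253 of 55487 entries). Cells needed 500 UMIs and 300 genes or more, and mitochondrial UMIs of 10% or less.

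Tags were called with HTODemux (Seurat 5.3.0, R 4.3.3, quantile 0.99) and doublets with Scrublet (scanpy 1.11.5, Python 3.11.15, expected rate 0.08), whose calls (7.86% and 6.87%) were removed. UMI counts were summed per sample and group of at least 10 cells and tested with edgeR 4.0.16 (TMM, filterByExpr, quasi-likelihood test, Benjamini-Hochberg, threshold 0.05), with the sample as a block, or the library for Lactation and Gestation. The same sample gives both groups of cells, which is where the pairing comes from. The 15 genes of the gate were left out. A standard error was taken as the absolute log2 fold change divided by the root of edgeR's F statistic. DESeq2 1.42.0 was an alternative, along with other filters, gates and left-out samples. Single shares were tested with an exact permutation test (scipy 1.17.1). Figures were drawn with matplotlib 3.10.9. Fits were tested on simulated data, with 200 genes changed by 2 on the log2 scale. The fit of Ly6c2-detected against undetected monocytes (1298 genes tested) recovered 93% of these changes, with 5 false calls. Lactation against Gestation (1313 genes) recovered 94.5% with 9 false calls, and C1q macrophages (3485 genes) 87.5% with 4. Retnla cells (2107 genes) gave 89.5% with 10, and the interaction (1313 genes) 99% with 2. Many log2 fold changes given above are smaller than 2, and recovery of smaller changes was not tested.

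Members and the 20 gene lists were chosen with earlier results of these data known. The text names, per list, up to the 4 genes with the smallest adjusted p and those with a described role. Beyond the lists it draws on the 8 highest and 8 lowest called genes with at least 100 UMIs and the same direction in 80% of samples. For names with 1 sample it draws on the 5 highest and 5 lowest ratios of at least 2, with 30 UMIs and at most 20% in 1 cell. UMIs per 10000 are summed UMIs over all UMIs of those cells. In the 3' data used here no length correction is needed to compare genes, but capture differs between them, so levels are compared within a gene. No file or label states the strand setting of the counting. RefSeq upstream sequences were used for letters only. In the markers of T cells, NK and innate lymphoid cells, mast cells, stroma and red cells, sums ran from 0 to 7.65 UMIs per 10000 over the groups of monocytes, milk and epithelial genes from 3.64 to 9.56, and B and plasma cell genes from 3.27 to 20.8.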

Additional observations from a re-analysis of the deposited data

Results flagged for a closer look

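In groups of 10 or fewer samples, a value far from the others by Dixon's test is reached by chance in about 1 in 20 groups, and 98 effects were examined. In the split by Ly6c2, Cd36 had a log2 difference of 0.93 in earlier Nulliparous, where the next sample was -0.79 and the median -1.74. Selenop had -1.44 in later Regression, against a median of 0.45. Against Retnla cells, H2-Ab1 was at -2.61 in earlier Gestation (median -1.55), Spn at 4.98 in later GF (median 2.52), Nr4a1 at 4.73 in later Lactation (median 2.40), Apoe at 1.81 in later Involution (median 4.37) and Lpl at -7.11 in earlier Nulliparous (median -4.21).

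The monocyte share moved in opposite directions between Gestation and Lactation, by -0.151 percentage points in the earlier and 0.165 in the later library, and this difference was not tested. The effect of Ly6c2 detection differed between libraries in edgeR's interaction test for Cd74 (-1.44), H2-Eb1 (-1.74), H2-Aa (-1.76), H2-Ab1 (-1.53) and Cx3cr1 (1.43).

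Monocytes that no comparison used carried no tag or several. The earlier library had 63 monocytes without a tag (2.36% of 2669 such cells, 60.3% Ly6c2-detected) and 41 with several (2.10% of 1949, 56.1% Ly6c2-detected). The later library had 83 without a tag (3.92% of 2116, 33.7% Ly6c2-detected) and 45 with several (1.5% of 2994, 48.9% Ly6c2-detected). Of the single-tag monocytes 75 of 220 earlier and 199 of 376 later ones were Ly6c2-detected. Untagged monocytes thus had a higher detected share in the earlier library and a lower one in the later. The shares by sample leave these cells out, and the effect of this was not tested.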

How the results depend on the processing

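The count of genes called between Ly6c2-detected and undetected monocytes (146) moved to 54 in the earlier library alone, 36 of them shared, and to 11 of 200 testable genes at 1000 UMIs per cell. In the other settings it ran from 102 (no replicate block) to 218 (no filter on low counts), and from 116 to 164 without 1 sample. For Lactation minus Gestation the count of 5 moved to 0 with DESeq2, 0 with no replicate block, 0 at a marker sum of 4, 3 with no filter (0 shared), 12 with doublet calls kept, 0 without the later Lactation cell richest in class II RNA or without the richest cell of each sample (both added after the values were seen), and 0 to 4 without 1 sample and no block. The 1480 genes against C1q macrophages moved to 2267 with DESeq2, 2854 with no filter and 468 in the earlier library alone, and the 1044 against Retnla cells to 2060 with no filter and 544 in the earlier library alone. The 5 genes that differed between libraries moved to 14 with no filter, and to 0 with DESeq2 (156 of 15895 at an unadjusted p under 0.05) and without both HT2 samples (70 in edgeR), and ran from 0 to 7 without 1 sample. The monocyte share difference (0.00714 points) reversed to -0.231 at 1000 UMIs and -0.170 at a marker sum of 4, and ran from -0.350 to 0.364 without 1 sample. It was 1.28 at a tag quantile of 0.95. The mean Ly6c2 share difference kept its sign, from 1.10 to 19.2 points, but at the tag quantile of 0.95 it joined 13.9 (earlier) and -11.7 points (later library, from 2.12).

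Reversed log2 fold changes in the split were, in the earlier library alone, Apoe 0.029, Hmgb2 0.018, Irf8 -0.090, H2-Ab1 0.73, H2-Aa 0.86 and H2-Eb1 0.73. At 1000 UMIs they were H2-Ab1 0.25, H2-Aa 0.14 and H2-Eb1 0.17, and with no replicate block Apoe 0.021. Hmgb2 was -0.25 at a marker sum of 4 in Lactation minus Gestation and -0.069 at a minimum of 20 cells against Retnla cells. Without 1 sample and no block, Lactation minus Gestation ran from -0.93 to 2.999 for Cxcl2, -0.77 to 1.05 for Apoe and -0.56 to 1.06 for Bst2, each below 0 without earlier Lactation. It ran from -0.11 to 0.65 for Selplg and -0.75 to 1.70 for Hmgb2, below 0 without later Lactation, and from -0.74 to 0.15 for Selenop and -0.020 to 1.26 for Tlr7, reversed without earlier Gestation. None of these except Hmgb2 and Irf8 in the split had been called. The cause of the changes was not tested, beyond fewer genes or samples where a setting removes them. The 14 monocytes of later Lactation, 1 sample per name and library, and the depth of the earlier library limit what these data can show.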
